A study of Mus musculus with 15 samples.

Results

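The 79 genes described here had a mean log2 value of 6 or above in wild-type (WT) TER119 positive cells of the mouse fetal liver and stood higher in cells labelled as Klf3 knockout (KO). The values carry no detection calls. They were chosen by their measured values in TER119 positive cells. A gene entered when the mean of the 4 WT arrays was at least 6 on the log2 scale, the mean of the 3 KO-labelled arrays was higher by at least 0.8 (1.74-fold), and the lowest KO-labelled array lay above the highest WT array. Of 19938 genes with a probe set of their own, 93 met these conditions, and 14 of them were left out by name, which left 79. Since the KO against WT difference in TER119 positive cells chose the genes, it is given below as a description and is not tested. The comparison that the choice did not use is KO against WT in TER119 negative cells.

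RNA came from livers of FVB/NJ embryos at stage E14.5 and was hybridised to 15 Affymetrix MoGene 1.0 ST arrays. The groups were WT TER119 positive (4 arrays), Klf3 KO TER119 positive (3), WT TER119 negative (4) and Klf3 KO TER119 negative (4). TER119 positive cells were held back on magnetic columns with anti-TER119 beads, and TER119 negative cells were those that passed through. The labels give no treatment, do not name the knockout allele, and do not say whether arrays came from separate embryos, and a p-value here covers only array-to-array spread within these groups, some of which may be technical.

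TER119 is a surface antigen that red cell precursors acquire as they mature, so that the positive fraction is taken to hold later precursors and the negative fraction earlier precursors and other liver cells. KLF3 is a zinc finger protein of the Krüppel-like family that binds CACCC boxes and related GC-rich sites and recruits the corepressor CtBP to silence genes. In red cell precursors its gene is switched on by KLF1, the activator that binds the same kind of box at globin and other erythroid genes.

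The array medians lay between 5.28 and 5.43, and no arrays of a group were identical. The Klf3 probe set did not separate the genotypes: its group mean was 10.22 in WT and 10.47 in KO-labelled TER119 positive cells, and 8.38 and 8.34 in TER119 negative cells. Which stretch of the gene was removed is not in the labels, and probes outside it would not respond, so genotypes are as labelled. Purity of the fractions is unknown. Of the red cell precursor markers 8 were measured, and their mean was 10.74 in WT and 10.91 in KO-labelled TER119 positive cells against 7.63 and 7.70 in TER119 negative cells. The 25 measured hepatocyte-lineage markers had a mean of 11.08 in WT and 11.20 in KO-labelled TER119 positive cells, above the 6.93 and 6.22 of TER119 negative cells. The positive fraction therefore held hepatocyte RNA. In bulk samples such as these, fewer cells of a type and less RNA per cell cannot be told apart. Replicates 2 and 4 of WT and replicate 4 of KO-labelled TER119 negative cells stood apart from the rest on the first principal component, and sex, read from Xist and Y-linked genes, was uneven there, with 4 male WT arrays against 1 male and 3 female KO-labelled arrays.

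The differences in TER119 positive cells ran from 0.80 to 4.09 with a median of 1.10 (2.14-fold), beside a median of -0.01 over all genes. They were at least 1 for 45 genes, at least 1.5 for 14 and at least 2 for 4. The WT means ran from 6.03 to 10.51 and the KO-labelled means from 7.00 to 11.62. The spread between arrays was mostly small, with a median SD of 0.17 in WT and 0.11 in KO-labelled arrays. The gap between the lowest KO-labelled and the highest WT array exceeded 0.5 for 67 genes, and was narrowest for Akr1b8 at 0.019. Over all 19938 genes, 5.29% had every KO-labelled TER119 positive array above every WT array. With limma's adjusted p under 0.05 in this contrast, 0.903% of all genes were higher and 0.115% lower. Nothing about the 79 genes is read from these shares, since the same contrast chose them.

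**Figure D1:**
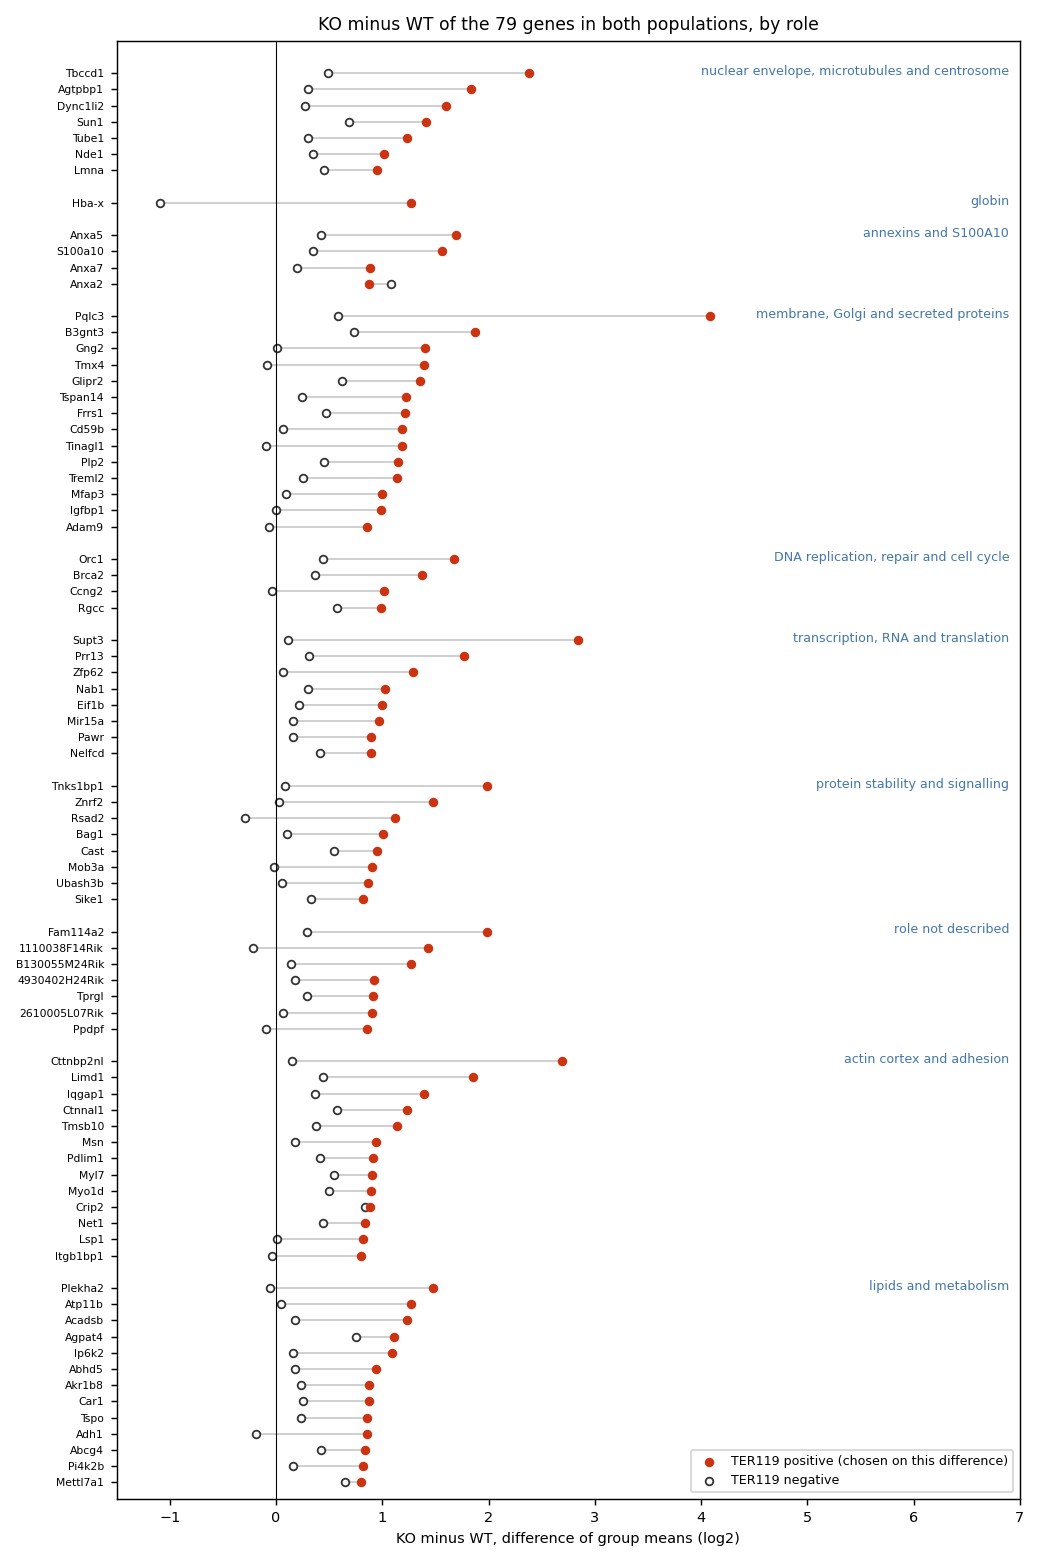
KO minus WT difference of group means (log2, horizontal axis) for each of the 79 genes, grouped by role. Filled points are TER119 positive cells, on which the genes were chosen (0.80 to 4.09), and open points are TER119 negative cells, where 67 genes lie above 0 and 12 below.

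The largest difference was that of Pqlc3, which encodes a membrane protein of the PQ-loop family. The WT TER119 positive arrays read 6.78, 6.38, 6.51 and 6.53, and the KO-labelled arrays 10.84, 10.57 and 10.50, a 17.0-fold difference in the mean. Its TER119 negative arrays read 6.77, 6.79, 6.78 and 6.24 in WT and 7.18, 7.25, 7.45 and 7.05 in KO-labelled cells. The groups did not overlap in either population, and the step of 0.58 in TER119 negative cells (SE 0.14, limma adjusted p = 0.256) did not pass the threshold of 0.05. B3gnt3 encodes a Golgi enzyme that extends glycan chains with N-acetylglucosamine. It read 6.98, 6.68, 6.60 and 6.61 in WT TER119 positive arrays and 8.69, 8.58 and 8.50 in KO-labelled arrays, which leaves a gap wider than the spread of either group.

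The other 12 genes for membrane, Golgi and secreted proteins differed by 0.85 to 1.40 in TER119 positive cells. Plp2, which encodes a proteolipid of internal membranes, read 9.17, 9.41, 9.24 and 9.77 in WT and 10.69, 10.46 and 10.48 in KO-labelled arrays. The WT positive mean of Plp2 was 9.40, below its WT negative mean of 10.47. Gng2 (1.40) encodes a G protein gamma subunit, Tmx4 (1.40) a thioredoxin-like protein of the endoplasmic reticulum, and Tspan14 (1.22) a tetraspanin that partners the protease ADAM10. Frrs1 (1.21) encodes a ferric reductase, and Cd59b (1.19) an inhibitor of the complement membrane attack complex. Glipr2 differed by 1.36, Tinagl1 by 1.19, Treml2 by 1.13, Igfbp1, whose product binds insulin-like growth factors, by 0.99, and Adam9, a membrane metalloprotease gene, by 0.85. Mfap3 had means of 7.72 in WT and 8.72 in KO-labelled cells.

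**Figure D2:**
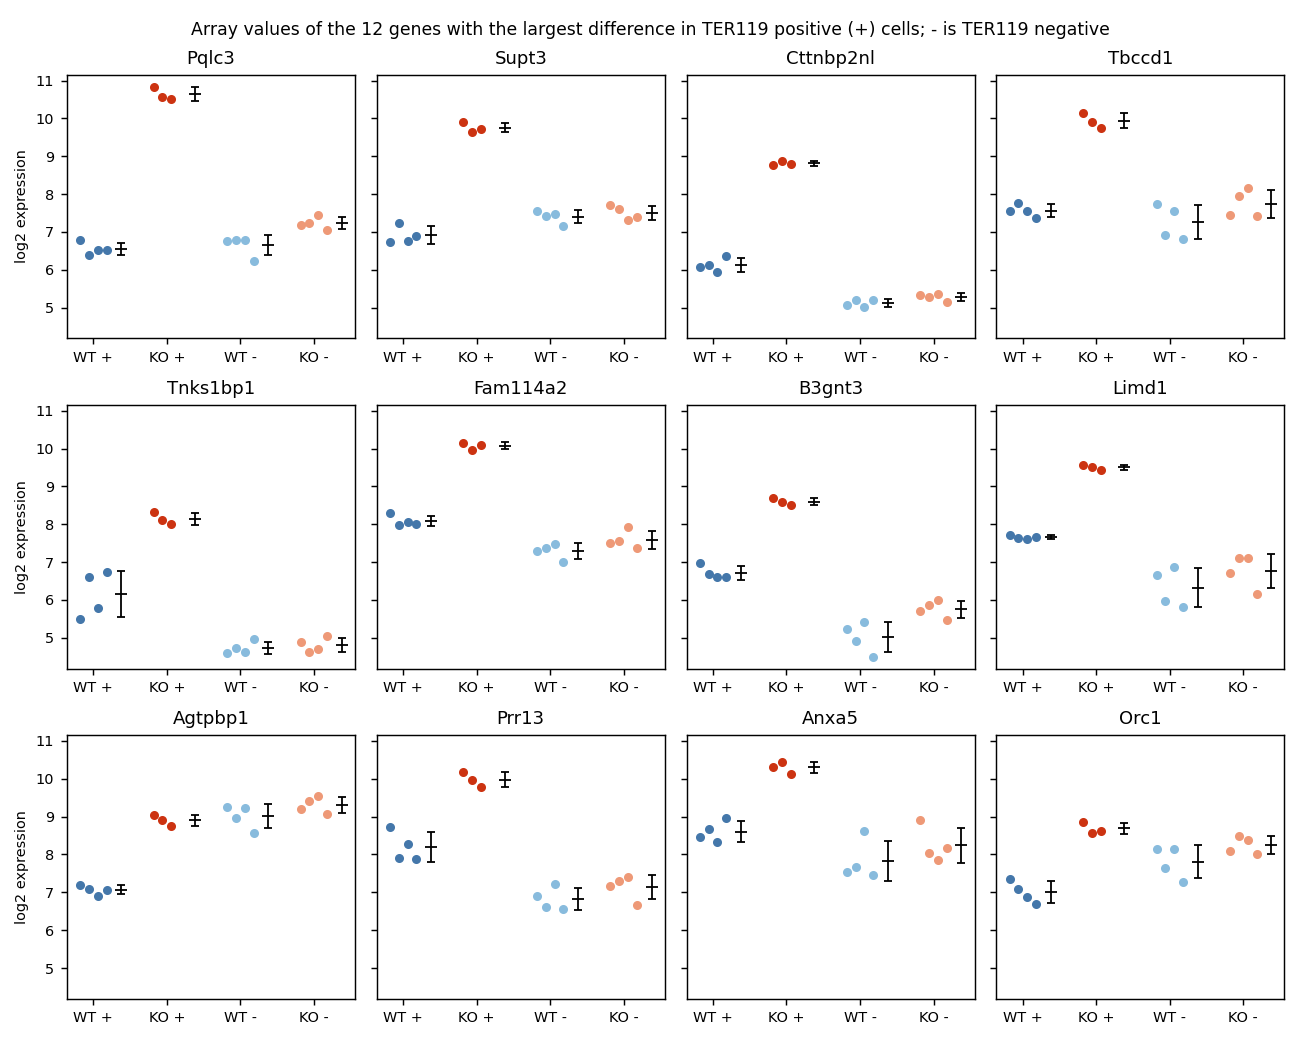
Log2 expression on every array (points) for the 12 genes with the largest difference in TER119 positive cells, with group mean and SD beside each group; + is TER119 positive and - is TER119 negative. Pqlc3 reads 6.38 to 6.78 in WT and 10.50 to 10.84 in KO-labelled TER119 positive arrays, and Tnks1bp1 has the widest WT spread, 5.50 to 6.73.

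Genes of the nuclear envelope, microtubules and the centrosome made up 7 of the 79, with differences of 0.95 to 2.38. Tbccd1, which encodes a protein that helps position the centrosome, read 7.54, 7.78, 7.56 and 7.37 in WT and 10.15, 9.91 and 9.76 in KO-labelled TER119 positive arrays. Agtpbp1 encodes a carboxypeptidase that trims glutamates from tubulin. Its arrays read 7.20, 7.09, 6.91 and 7.07 in WT and 9.04, 8.91 and 8.76 in KO-labelled cells. In both genes the gap between the groups was wider than the spread within either. Dync1li2 (1.60) encodes a dynein light intermediate chain, Nde1 (1.01) a dynein regulator, and Tube1 (1.23) epsilon-tubulin. Sun1 (1.41) encodes an inner nuclear membrane protein that joins the lamina to the cytoskeleton, and Lmna (0.95) the A-type lamins.

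Relatives of these genes, gathered by name after the values were seen and not tested, mostly stayed near 0 in TER119 positive cells. Dync1li1 differed by 0.15 and Ndel1 by -0.09, beside Dync1li2 and Nde1. Among 6 other lamins, SUN proteins and nesprins the differences lay between -0.23 and 0.65, with Sun2 at -0.06 and Lmnb1 at 0.19. The other extreme, Syne3 at 0.65, encodes a nesprin.

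Annexins are calcium-dependent proteins that bind acidic phospholipids, and S100A10 is the partner of annexin A2 in a membrane-bound complex. Anxa5 read 8.46, 8.67, 8.32 and 8.97 in WT and 10.32, 10.44 and 10.14 in KO-labelled TER119 positive arrays. S100a10 differed by 1.56, Anxa7 by 0.89 and Anxa2 by 0.87. Anxa2 was the most variable of the 4 in WT cells, reading 7.50, 8.39, 7.84 and 8.31 against 9.04, 8.93 and 8.68. Its 2 higher WT arrays were those with the higher hepatocyte-list means (11.45 and 11.36, against 10.68 and 10.82), and the part of hepatocyte RNA in its level was not tested. Of 9 other annexins measured, the differences lay between -0.07 and 0.46. The 4 with a WT TER119 positive mean of 6 or above were all higher. They differed by 0.46 (Anxa1), 0.43 (Anxa4), 0.25 (Anxa6) and 0.19 (Anxa3). The 12 other S100A genes lay between -0.17 and 0.92, and both ends were genes of lower WT mean, S100a4 (4.79) and S100a8 (5.77). The 4 with a WT mean of 6 or above were higher by 0.06 (S100a1) to 0.30 (S100a11). The choice limits the differences of such genes from above, since a larger one with separated groups would have met its conditions.

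The actin cortex and cell adhesion were represented by 13 genes, with differences of 0.80 to 2.69. Cttnbp2nl, whose product binds cortactin, read 6.06, 6.12, 5.94 and 6.36 in WT and 8.76, 8.88 and 8.79 in KO-labelled TER119 positive arrays. Limd1 encodes a LIM-domain adaptor of adhesion sites. It read 7.72, 7.64, 7.61 and 7.67 in WT and 9.58, 9.51 and 9.44 in KO-labelled arrays, a tight pair of groups with SDs of 0.05 and 0.07. Msn encodes moesin, which ties actin to the plasma membrane. It read 9.94, 9.86, 9.86 and 9.89 in WT and 10.85, 10.81 and 10.84 in KO-labelled arrays. Tmsb10, which encodes an actin monomer-binding thymosin, read 9.55, 9.57, 9.49 and 9.92 in WT and 10.76, 10.78 and 10.78 in KO-labelled arrays. The KO-labelled arrays of both genes lay close together, with SDs of 0.02 for Msn and 0.01 for Tmsb10.

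Iqgap1 (1.39) encodes a scaffold that binds actin and CDC42, Ctnnal1 (1.23) a relative of alpha-catenin, and Net1 (0.84) an exchange factor for RhoA. Pdlim1 (0.91) encodes a PDZ and LIM protein of actin fibres, Myl7 (0.91) a myosin light chain, Myo1d (0.89) an unconventional myosin, and Crip2 (0.88) a LIM-domain protein. Lsp1 encodes an actin-binding protein of white blood cells and read 6.09, 6.36, 6.29 and 6.41 in WT and 7.01, 7.04 and 7.26 in KO-labelled arrays. Itgb1bp1, whose product binds the tail of integrin beta 1, read 6.30, 6.19, 5.99 and 6.32 in WT and 7.04, 7.00 and 6.97 in KO-labelled arrays. These 2 genes lie just inside the difference minimum. Of the other ERM proteins, Rdx differed by -0.04 and Ezr by 0.45.

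DNA replication, repair and cell cycle genes numbered 4. Orc1 encodes the largest subunit of the origin recognition complex, which marks where replication starts. It read 7.36, 7.09, 6.88 and 6.70 in WT and 8.86, 8.57 and 8.63 in KO-labelled TER119 positive arrays. The other 5 subunits measured, Orc2 to Orc6, differed by -0.13 to 0.12. Brca2 (1.38) serves homologous recombination, Ccng2 (1.02) encodes cyclin G2, and Rgcc (0.99) a regulator of the cell cycle.

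Among 8 genes of transcription, RNA and translation, Supt3 had the largest difference. It encodes a subunit of the SAGA histone acetyltransferase complex. The WT TER119 positive arrays read 6.74, 7.24, 6.76 and 6.90, and the KO-labelled arrays 9.89, 9.65 and 9.71. In TER119 negative cells the WT arrays read 7.55, 7.41, 7.47 and 7.16 and the KO-labelled arrays 7.71, 7.61, 7.31 and 7.40, so there the groups overlapped. Prr13 read 8.73, 7.90, 8.29 and 7.88 in WT and 10.17, 9.97 and 9.77 in KO-labelled TER119 positive arrays. Zfp62 (1.29) encodes a zinc finger protein, Nab1 (1.02) a corepressor of EGR factors, and Eif1b, with means of 8.93 and 9.93, a translation initiation factor of the eIF1 family. Pawr (0.90) encodes a pro-apoptotic repressor and Nelfcd (0.89) a subunit of the negative elongation factor that pauses RNA polymerase II. The other 3 subunits of that factor measured differed by -0.06 to 0.22.

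Mir15a, a microRNA gene, belongs to the same group. Its TER119 positive arrays read 6.79, 6.42, 6.62 and 6.54 in WT and 7.98, 7.88 and 6.84 in KO-labelled cells, so KO replicate 3 lay close to the WT arrays. The KO-labelled SD of 0.63 was the highest of the 79 genes. The array measures RNA that spans the precursor and does not tell which mature strand is made. Mir15a lies beside Mir16-1 on the minus strand of chromosome 14 of GRCm38.p6, with miR-15a-5p at chr14:61632075-61632096 and miR-16-5p at chr14:61631936-61631957. The mature sequences from RefSeq are shown because miR-15a-5p and miR-16-5p share a seed, bases 2 to 8. Capitals mark bases 2 to 8 of each sequence, and those of miR-15a-3p differ.
miR-15a-5p: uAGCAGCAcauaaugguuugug
miR-15a-3p: cAGGCCAUacugugcugccuca
miR-16-5p: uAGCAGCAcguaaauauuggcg
Of the genes around it, Mir16-1 differed by -0.05 and Dleu2 by -0.32 in TER119 positive cells.

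Protein stability and signalling held 8 genes. Tnks1bp1, whose product binds tankyrase, read 5.50, 6.60, 5.78 and 6.73 in WT and 8.32, 8.10 and 8.01 in KO-labelled TER119 positive arrays. It had the highest WT SD of the 79 genes, 0.60, and its higher WT arrays were again replicates 2 and 4. Rsad2 encodes viperin, an antiviral enzyme induced by interferon. Its arrays read 10.34, 10.79, 10.65 and 10.25 in WT and 11.87, 11.62 and 11.38 in KO-labelled cells. Rsad2 had TER119 negative means of 5.26 in WT and 4.97 in KO-labelled cells, well below the positive fraction. Znrf2 (1.48) encodes a ubiquitin ligase, Bag1 (1.01) a co-chaperone of HSP70, and Cast (0.95) calpastatin, the inhibitor of calpain proteases. Mob3a differed by 0.90, Ubash3b by 0.87 and Sike1, whose product restrains the kinases TBK1 and IKK epsilon, by 0.82.

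Lipid and metabolic genes were the other large group, with 13 members between 0.80 and 1.47. Plekha2 (1.47) encodes a phosphoinositide-binding adaptor, Atp11b (1.27) a phospholipid flippase, and Agpat4 (1.11) an acyltransferase of phospholipid synthesis. Acadsb (1.23) encodes an acyl-CoA dehydrogenase, Abhd5 (0.94) an activator of triglyceride breakdown, and Pi4k2b (0.82) a phosphatidylinositol kinase. Ip6k2 (1.10) makes inositol pyrophosphates, while its relative Ip6k1 differed by -0.02. Tspo (0.86) encodes an outer mitochondrial membrane protein, Abcg4 (0.84) a sterol transporter, and Akr1b8 (0.88) and Adh1 (0.85) encode an aldo-keto reductase and an alcohol dehydrogenase. Adh1, a gene strongly expressed in liver, read 6.54, 7.61, 6.70 and 7.42 in WT and 7.98, 8.09 and 7.70 in KO-labelled TER119 positive arrays, with WT replicates 2 and 4 again the higher ones. Mettl7a1, the gene nearest to the difference minimum, read 8.42, 8.63, 8.71 and 8.51 in WT and 9.56, 9.45 and 9.10 in KO-labelled arrays.

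Car1 and Hba-x were the only genes of the 79 that stood in any of the 21 gene lists used here. Car1 encodes carbonic anhydrase 1, an abundant red cell enzyme, and is listed among genes activated by KLF1. It read 9.27, 9.48, 9.24 and 9.0 in WT and 9.98, 9.86 and 10.52 in KO-labelled TER119 positive arrays, while Car2 differed by -0.09. Of the other 35 measured genes of the KLF1-activated list, 1 passed limma's threshold upward and 0 downward in TER119 positive cells. Hba-x encodes zeta-globin, the embryonic alpha-like chain. It read 8.43, 7.74, 8.21 and 7.98 in WT and 9.27, 9.19 and 9.63 in KO-labelled TER119 positive arrays. Its order was the opposite in TER119 negative cells, with WT arrays at 6.79, 8.20, 7.66 and 9.47 and KO-labelled arrays at 6.78, 6.69, 6.41 and 7.88. These groups overlapped, and the difference of -1.09 (SE 0.42, limma adjusted p = 0.644) did not pass. The highest of these values, 9.47, 8.20 and 7.88, were on the arrays that stood apart, WT replicates 4 and 2 and KO replicate 4. The part of those arrays in the difference was not tested.

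No role is described for the last 7 genes. Fam114a2 read 8.29, 7.98, 8.07 and 8.01 in WT and 10.15, 9.97 and 10.09 in KO-labelled TER119 positive arrays. Tprgl read 9.66, 9.46, 9.60 and 9.51 in WT and 10.59, 10.36 and 10.44 in KO-labelled arrays. In 2610005L07Rik the WT arrays read 9.30, 9.59, 9.26 and 9.24 and the KO-labelled arrays 10.43, 10.15 and 10.16. None of these 3 genes had overlapping groups, as the choice required. B130055M24Rik, the gene of lowest WT mean admitted, read 6.28, 6.08, 5.87 and 5.90 in WT and 7.47, 7.33 and 7.10 in KO-labelled arrays. 1110038F14Rik differed by 1.43, 4930402H24Rik by 0.92 and Ppdpf by 0.85.

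Genes just beyond the limits of the choice had much the same values. Prelid2, Asap2 and Dnph1 missed the difference minimum. Prelid2 read 6.18, 6.13, 5.99 and 5.90 in WT and 6.70, 6.71 and 7.13 in KO-labelled arrays, Asap2 5.90, 6.23, 6.01 and 6.30 against 6.99, 6.83 and 6.90, and Dnph1 6.54, 6.63, 6.18 and 6.27 against 7.32, 7.08 and 7.19. Fbxl2, Neu3 and Tfcp2 missed the level minimum. Fbxl2 read 5.92, 6.02, 5.97 and 6.06 in WT and 6.76, 7.02 and 6.62 in KO-labelled arrays, Neu3 6.17, 5.86, 5.79 and 6.01 against 7.30, 7.36 and 7.66, and Tfcp2 5.87, 6.18, 5.55 and 6.02 against 6.89, 6.90 and 6.68. The limits thus fell within a run of similar values. Among the genes checked, no other with a WT mean of 6 or above and a difference of 0.8 or above had overlapping groups. Genes left out by name, and Y-linked or X-inactivation genes, were not part of this check.

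In TER119 negative cells, where the genes were not chosen, 0 of the 79 passed limma's adjusted p of 0.05, beside 15 higher genes (0.0752%) and 2 lower genes (0.01%) of all 19938. At an unadjusted limma p under 0.05, 26 of the 79 were higher and 1, Hba-x, was lower, while over all genes 3.73% were higher and 3.84% lower. These shares are not given for genes of like WT level, so the excess over that nearer background is not known. The KO-labelled mean was higher for 67 of the 79 (84.8%) and lower for 12, with a median difference of 0.24. Over all genes 46.2% were higher and the median was -0.02. The genes that shared the level condition are a nearer background: of the 8283 genes with a WT TER119 positive mean of 6 or above, 73.3% were higher and the median was 0.10. All 4 KO-labelled arrays lay above all 4 WT arrays for 12 of the 79 (15.2%), against 1.22% of all genes and 2.02% of those 8283, and 0 of the 79 had all KO-labelled arrays below.

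The 12 genes were Pqlc3, B3gnt3, Glipr2, Tmsb10, Agpat4, Rgcc, Cast, Tprgl, Myl7, Anxa7, Akr1b8 and Anxa2. Cast and Glipr2 came nearest to the threshold. Cast read 8.93, 9.12, 9.02 and 8.86 in WT and 9.35, 9.54, 9.64 and 9.59 in KO-labelled TER119 negative arrays, a difference of 0.55 (SE 0.10, limma adjusted p = 0.0503). Glipr2, a Golgi-associated protein gene, read 6.31, 6.04, 6.51 and 6.10 in WT and 6.97, 6.82, 6.85 and 6.78 in KO-labelled arrays, a difference of 0.62 (SE 0.11, limma adjusted p = 0.0503). Over the other settings their adjusted p ranged from 0.0336 to 0.459 and from 0.0150 to 0.711.

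Anxa2 had the largest higher difference of the 79 in TER119 negative cells. Its arrays read 7.51, 7.64, 8.12 and 6.94 in WT and 8.96, 8.58, 8.59 and 8.43 in KO-labelled cells, a difference of 1.09 (SE 0.22, limma adjusted p = 0.134). Crip2 read 5.58, 5.04, 5.37 and 4.87 in WT and 6.10, 6.29, 6.40 and 5.44 in KO-labelled arrays, with the groups overlapping, and differed by 0.84 (SE 0.18, limma adjusted p = 0.158). Agpat4 differed by 0.75 and B3gnt3 by 0.74, and neither passed. Without single arrays a few genes passed limma's threshold: Agpat4 and Cast without KO replicate 1, Crip2 without KO replicate 4, and Anxa2, Ctnnal1 and Glipr2 without WT replicate 3. Without KO replicate 4, which leaves 3 arrays against 4, 24 of the 79 (30.4%) had no overlap, beside 2.90% of all genes and 5.06% of the 8283.

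**Figure D3:**
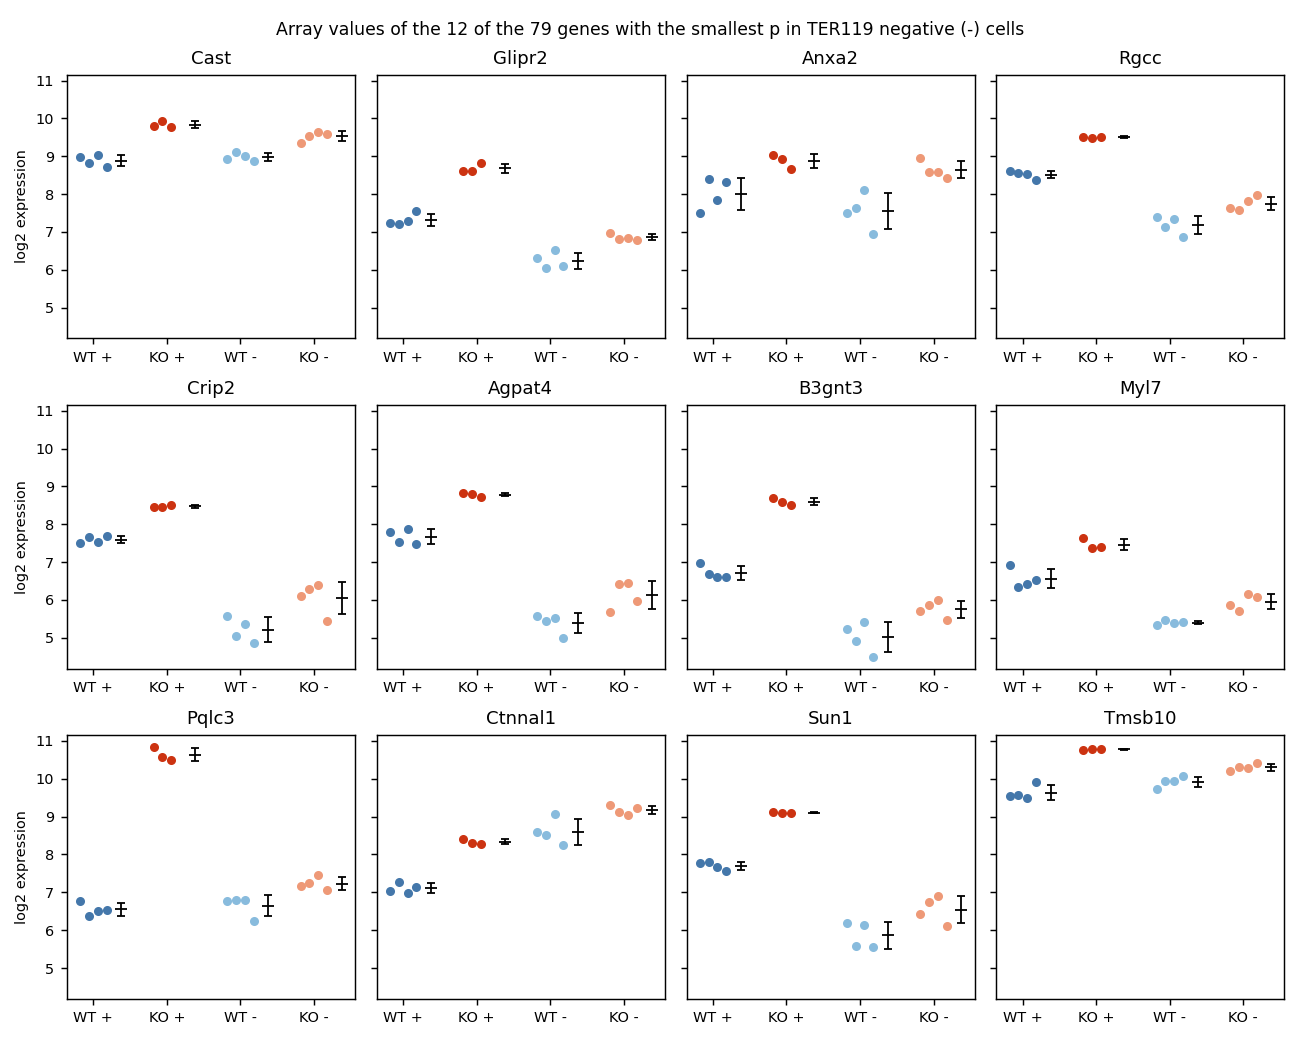
Log2 expression on every array (points), with group mean and SD, for the 12 of the 79 genes with the smallest p in TER119 negative cells; + is TER119 positive and - is TER119 negative. Cast reads 8.86 to 9.12 in WT and 9.35 to 9.64 in KO-labelled TER119 negative arrays, and none of the 12 passes an adjusted p of 0.05.

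The role groups are described by counts alone, since 0 of the 79 genes passed, and beside each share stand the 73.3% of genes of like WT level that were higher. KO-labelled TER119 negative means were higher for 7 of 7 genes of the nuclear envelope and microtubules (median 0.35), 4 of 4 annexin and S100A10 genes (0.38) and 8 of 8 genes of transcription, RNA and translation (0.19). Of the actin and adhesion genes 12 of 13 were higher (median 0.41), of the lipid and metabolic genes 11 of 13 (0.18) and of the membrane and secreted genes 11 of 14 (0.17). Replication, repair and cell cycle genes were higher for 3 of 4 (median 0.40), protein stability and signalling genes for 6 of 8 (0.07) and genes of undescribed role for 5 of 7 (0.14). The globin gene was lower. Crip2 differed by 0.88 in TER119 positive and 0.84 in TER119 negative cells, whereas Supt3, Cttnbp2nl, Tnks1bp1 and Znrf2 differed by 0.03 to 0.15 in TER119 negative cells. Cttnbp2nl and Tnks1bp1 were dim there, with means of 5.13 and 4.73 in WT and 5.28 and 4.81 in KO-labelled arrays. Crip2 was also dim there in WT arrays, at 5.22. RMA compresses differences between dim signals. No test of the populations against each other is given, since the positive difference chose the genes.

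Other gene lists moved on the same TER119 negative arrays. Of the KLF1-activated list 32 of 36 genes had a higher KO-labelled mean (88.9%, median 0.24), of the red cell membrane list 30 of 34 (88.2%, median 0.26) and of the haem list 26 of 29 (median 0.18), beside 84.8% of the 79 genes (median 0.24). Other red cell lists had lower shares: early erythroid and proliferating precursor genes were higher for 14 of 17 (median 0.11), red cell precursor markers, Hba-x among them, for 6 of 8 (median 0.23), erythroid transcription regulators for 19 of 30 and late erythroid genes for 15 of 26 (median 0.10 for both). Hepatocyte-lineage markers were higher for 1 of 25 (median -0.76), neutrophil and granulocyte precursor markers for 2 of 22 (median -0.27) and megakaryocyte markers for 0 of 15 (median -0.24). The array means of the hepatocyte list ran from 5.60 to 6.96 in KO-labelled and from 5.79 to 7.82 in WT TER119 negative arrays. Their part in the shift of the 79 genes was not tested. With that mean as a covariate with a slope per population, a setting added after seeing the data, the median of the 79 was 0.15. Without the 3 arrays that stood apart it was 0.11.

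**Figure D4:**
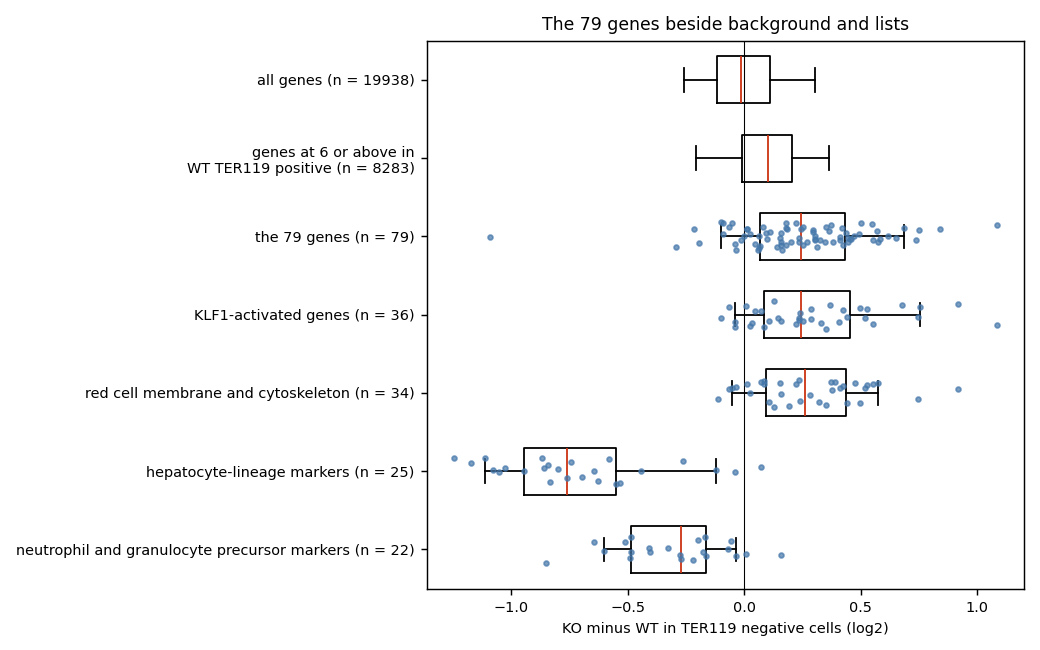
KO minus WT difference in TER119 negative cells (log2) for all genes, genes with a WT TER119 positive mean of 6 or above, the 79 genes and 4 marker lists; boxes show quartiles, whiskers the 5th and 95th percentiles, and points single genes. The medians are -0.02, 0.10 and 0.24 for the first 3 sets, 0.24 for KLF1-activated genes and -0.76 for hepatocyte markers.

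In TER119 positive cells the hepatocyte list stood at 10.68 to 11.45 in WT and 10.86 to 11.38 in KO-labelled arrays, so the groups overlapped. A fit with its mean as a covariate with a slope per population was added after seeing the data. It gave differences of 0.71 to 4.10 for the 79 genes, which describe the contrast that chose them and support nothing further. Those under 0.8 were Adh1 (0.71), Sike1 (0.75), Anxa2 (0.76), Mettl7a1 (0.77) and Itgb1bp1 (0.79). The megakaryocyte list was lower in KO-labelled TER119 positive cells, with a median of -0.76 and array means of 7.94 to 8.35 against 8.71 to 8.98 in WT, and its part in the values of the 79 genes was not tested.

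Between the populations the 79 genes were mixed in WT cells. The positive mean exceeded the negative mean by at least 1 for 26 genes and lay at least 1 below it for 15, where 25.9% and 14.6% of the 8283 genes of like WT level did so. Rsad2 (5.24), Lmna (3.07), Igfbp1 (2.94) and Mettl7a1 (2.48) were much higher in WT TER119 positive cells. Lsp1 (-2.30), Eif1b (-1.99) and Agtpbp1 (-1.94) were much lower there. In KO-labelled cells the same step was at least 1 for 46 genes and -1 or below for 3, and its median was 1.54 against 0.41 in WT. These steps contain the difference that chose the genes and are not tested, and whether all arrays were normalized in a single run is not stated.

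For 20 genes the positive fraction lay below the negative in WT and above it in KO-labelled cells, among them Pqlc3 (-0.10 and 3.41), Supt3 (-0.48 and 2.25), S100a10 (-1.01 and 0.21), Znrf2 (-0.36 and 1.09) and Orc1 (-0.79 and 0.44). For 12 genes the KO-labelled positive mean stayed below both negative means, Eif1b and Agtpbp1 among them. Agtpbp1 had positive means of 7.07 in WT and 8.90 in KO-labelled cells, beside negative means of 9.01 and 9.31.

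**Figure D5:**
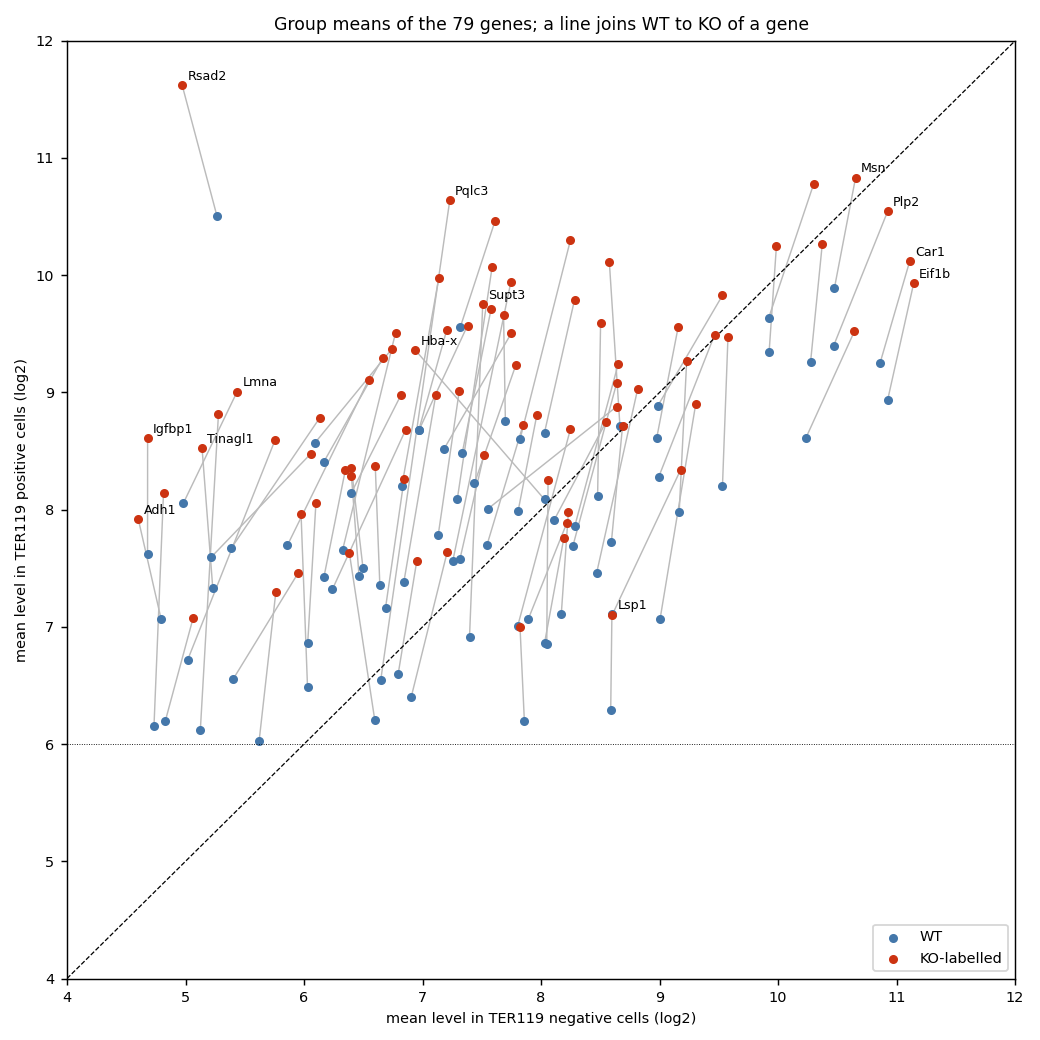
Mean log2 level in TER119 positive cells (vertical axis) against TER119 negative cells (horizontal axis) for the 79 genes in WT and KO-labelled cells, with a line joining the points of a gene, a dashed line of equal levels and a dotted line at 6. The steps run mainly upward, because the choice required a higher KO-labelled positive mean. The positive mean exceeds the negative for 46 genes in WT and 66 in KO-labelled cells, and these counts contain the same difference.

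More than 1 probe set was available for 4 of the genes, Myo1d, Pdlim1, Plp2 and Tmsb10. The 5 probe sets that were not used to choose them all had every KO-labelled TER119 positive array above every WT array, with differences of 0.65 to 1.13, and 2 of them reached 0.8. The other probe set of Pdlim1 differed by 0.66 and that of Myo1d by 0.77, under the minimum. These probe sets share the samples, and may share transcripts, with the probe sets used. Which locus each probe set matches was not checked.

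The genes were spread over the genome, with 9 of the 943 measured genes on chromosome 3 and 7 of the 1165 on chromosome 9. They were 7 of the 1563 on chromosome 11, 4 of the 1734 on chromosome 7 and 0 of the 471 on chromosome 18. By the RefSeq gene order of GRCm38.p6, the 79 genes had 158 nearest measured neighbours, and 5 of these also met the difference and separation conditions. The share of all genes that met both conditions is not given, while 5.29% met the separation condition alone. Fam114a2 and Mfap3 were neighbours of each other and both among the 79, so they met the conditions by the choice itself. Rsad2 lay beside Cmpk2 (0.91), which encodes a mitochondrial nucleotide kinase, Crip2 beside Crip1 (1.66) and Cd59b beside Cd59a (1.37). Crip1 and Cd59a had been left out by name. Cd59b, Akr1b8 and Mettl7a1 have close copies in the mouse genome, whose signals the probes may not fully separate. The median difference of the neighbours that were not among the 79 was 0.02.

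RefSeq start sites of GRCm38.p6 gave promoters, from 250 bases before to 50 after the start, for 58 of the 79 genes (80 promoters). Motifs were searched on both strands. CACCC, the core of the KLF box, occurred in 65% of these promoters, in 61.0% of all 19116 promoters of measured genes and in 62.0% of the 8547 promoters of genes with a WT TER119 positive mean of 6 or above. The longer CCACACCC, which contains CACCC, occurred in 1.25%, 3.74% and 3.46%. The looser CCNCNCCC, which overlaps both, occurred in 81.25%, 59.6% and 68.3%. The GC box GGGCGG occurred in 68.8%, 49.3% and 64.0%, and the GATA word AGATAA in 8.75%, 9.24% and 6.56%. The median GC content was 60.7%, 57.7% and 61%. A match is a description of the letters and not a binding site.

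The 250 bases before the start are shown for Pqlc3 and Supt3, the genes of largest difference in TER119 positive cells. They are also shown for Anxa2 and Hba-x, which had the largest higher and the largest lower difference in TER119 negative cells. Capitals mark CACCC or its reverse complement GGGTG. Pqlc3 (chr12:17000119-17000368, minus strand) has 2 matches, Supt3 (chr17:44776916-44777165, plus strand) has 1, Anxa2 (chr9:69453433-69453682, plus strand) has 4 and Hba-x (chr11:32276350-32276599, plus strand) has 2.
Pqlc3: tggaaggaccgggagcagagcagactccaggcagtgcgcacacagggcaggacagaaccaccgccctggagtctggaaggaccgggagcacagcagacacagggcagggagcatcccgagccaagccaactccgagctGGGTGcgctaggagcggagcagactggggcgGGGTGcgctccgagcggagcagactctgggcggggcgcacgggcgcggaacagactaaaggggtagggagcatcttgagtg
Supt3: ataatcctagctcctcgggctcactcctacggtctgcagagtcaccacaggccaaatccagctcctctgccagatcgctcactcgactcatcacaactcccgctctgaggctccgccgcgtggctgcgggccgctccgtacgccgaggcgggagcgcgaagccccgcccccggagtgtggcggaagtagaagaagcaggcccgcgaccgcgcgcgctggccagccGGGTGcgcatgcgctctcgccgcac
Anxa2: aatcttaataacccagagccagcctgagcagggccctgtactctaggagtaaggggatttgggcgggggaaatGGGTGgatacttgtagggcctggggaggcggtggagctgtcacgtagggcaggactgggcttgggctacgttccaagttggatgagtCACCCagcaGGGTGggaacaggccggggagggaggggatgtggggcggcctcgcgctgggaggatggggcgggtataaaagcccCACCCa
Hba-x: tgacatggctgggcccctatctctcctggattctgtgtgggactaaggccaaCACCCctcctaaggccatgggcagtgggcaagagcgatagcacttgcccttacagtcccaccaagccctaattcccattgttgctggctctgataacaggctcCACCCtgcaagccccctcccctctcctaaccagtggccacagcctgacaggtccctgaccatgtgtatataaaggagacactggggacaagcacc
The differences of Pqlc3, Supt3, Anxa2 and Hba-x in TER119 positive cells were 4.09, 2.84, 0.87 and 1.27. Whether the number of matches goes with the difference was not tested.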

How the data were processed

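Each deposited value is the log2 expression of a probe set, which the authors computed with RMA and Partek (versions unknown), per the submitters' processing notes. RMA compresses differences between dim signals. The table held 35399 probe sets, of which 21789 had 1 gene symbol in the platform annotation, 1621 had several and 11989 were unlisted. The probe set of highest mean was kept for each symbol (999 genes had more than 1), which left 19938 genes. Groups and replicate numbers came from the titles. The members, gene lists, role groups and settings were chosen with earlier results of these data known. The rule for genes given with each TER119 positive array value took the 12 largest differences, the 6 of highest WT TER119 positive mean, members of a gene list, and those nearest each limit. Anxa2, Adh1, Mir15a, Cast, Glipr2 and Crip2 were added after their values were seen, and TER119 negative array values are given only where a result turns on them.

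All 15 arrays entered limma 3.58.1 in R 4.3.3 with a mean per group, no filter and no covariate (11 residual and 4.91 prior degrees of freedom). Adjusted p-values are 2-sided, by Benjamini-Hochberg over 19938 genes, with a threshold of 0.05. Errors are SE for differences and SD for levels. The script was tested on simulated data. The number of arrays limits the precision. Alternatives were other scaling, probe set rules, limits, covariates and left-out arrays. Tables were handled with Python 3.11.15.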

Additional observations from a re-analysis of the deposited data

Results flagged for a closer look

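For the 24 of the 79 genes that the rule for array values named, 72 groups of 4 arrays were searched for an array far from the others, and 5 were found, where chance gives about 1 in 20. In TER119 negative cells Pqlc3 read 6.24 in WT replicate 4, against 6.77 to 6.79 in the other WT arrays. Moesin's gene Msn read 10.20 in KO replicate 4, against 10.78 to 10.83 in the other KO-labelled arrays. Lsp1 read 8.99 in KO replicate 1, against 8.42 to 8.50. In WT TER119 positive cells 2610005L07Rik read 9.59 in replicate 2, against 9.24 to 9.30, and Tmsb10 read 9.92 in replicate 4, against 9.49 to 9.57. The 5 values fell on 5 different arrays.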

How the results depend on the processing

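In TER119 negative cells the number of the 79 genes past the threshold was 0, and became 2 with median-centred arrays or with the mean over probe sets, and 1 without the 3 arrays that stood apart. It was also 1 with a difference minimum of 0.6 or a WT level minimum of 5, from genes outside the 79. Leaving out single arrays gave 0 to 3. Of all genes 17 passed, against 4 with TER119 negative arrays alone, 10 with either hepatocyte-list covariate, 7 with sex as a factor, 8 without the 3 arrays and 8 to 24 with single arrays left out (8 without KO replicate 3 or WT replicate 2, 11 without KO replicate 2). Deviations of same-numbered arrays correlated at -0.38 to 0.65, and 1 of 7 KO-labelled arrays correlated best with its own number. So few arrays cannot tell whether replicate numbers pair the samples. With the replicate block 10 of all genes and 0 of the 79 passed. The median of the 79 was 0.24, became 0.11 without the 3 arrays and ranged from 0.18 to 0.35 with single arrays left out. The choice gave 131 genes with a difference minimum of 0.6, 45 with 1.0, 107 with a level minimum of 5, 62 with 7, and 74 to 83 with single arrays left out. At difference minima of 0.6 and 1.0, 110 and 38 of the chosen genes were higher in TER119 negative cells. Beside them stand 46.2% of all genes and 73.3% of the 8283 of like WT level. No overlap was found for 20 and 5, beside 1.22% of all genes and 2.02% of the 8283. Without the 3 arrays (3 against 2) 25 of the 79 had no overlap, beside 7.77% of all genes and 8.44% of the 8283. With single arrays left out 12 to 24 had none, beside 1.58% to 3.05% of all genes and 2.43% to 5.43% of the 8283. With further quantile normalization the choice gave 70 genes, all of them among the 79. In that setting the median of the 79 was 0.15 and 58 of them were higher. The shares over all genes and over genes of like WT level are not given there, so whether an excess remained is not known. The cause of these changes was not tested. No result reversed. Dim signals are compressed by RMA, so fold changes near the level minimum may be understated.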
